A study of Homo sapiens with 16 samples.

Results

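The HOX cluster genes described here are those whose symbol is HOXA, HOXB, HOXC or HOXD followed by a number. Membership goes by symbol, and the family was chosen with earlier results of these data known. RefSeq lists 39 such genes, and 27 of them were measured by a transcript cluster (the array's probe set for 1 gene) annotated to 1 symbol, among 18377 genes measured in that way. The members were HOXA2, the 1 measured of 11 HOXA genes, 10 of 10 HOXB genes, 7 of 9 HOXC genes (HOXC5 and HOXC8 to HOXC13) and 9 of 9 HOXD genes. HOXC4 and HOXC6 shared 1 transcript cluster and were not members, and the other HOXA genes were not analysed here. Each member had 1 transcript cluster.

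HOX genes encode homeodomain transcription factors that give cells their position along the head-to-tail axis and, for 5′ genes of the HOXA and HOXD clusters, along the limb. They lie in 4 clusters, HOXA on chromosome 7, HOXB on 17, HOXC on 12 and HOXD on 2, and their order along the chromosome follows the order in which they are expressed in the embryo. HOX proteins bind DNA with the TALE homeodomain cofactors PBX, MEIS and PKNOX. Polycomb complexes hold the clusters silent and Trithorax-type complexes keep them active, so that many adult cell types, mammary epithelium and breast cancer lines included, show a fixed pattern of active and silent HOX genes.

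Tumours came from BT474, a human HER2-positive luminal breast cancer line with amplified ERBB2. The cells carried a doxycycline-inducible lentiviral vector that expressed the microRNA-type hairpin SHP2 miR1 (7 tumours), SHP2 miR2 (3 tumours) or CTRL miR (6 tumours), and formed tumours in the mammary fat pad of mice without a full immune system. All 3 groups, the CTRL miR controls included, received 2 g/L doxycycline for 30 days once tumours had formed, and 100 ng of total RNA per tumour was hybridised to 1 human Affymetrix gene array. The labels do not tie tumours to animals, give no ages and do not say whether the transduced cells were clones or pools, and p-values therefore measure the spread between these tumours. The dissected tissue can hold mouse host cells, and in such bulk samples fewer cells of a type and less RNA per cell cannot be told apart. Values are log2 signals, so that 1 unit is a doubling.

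SHP2 is the phosphatase encoded by PTPN11. Its signal was 6.34 to 7.18 in the 10 SHP2 miR tumours and 8.23 to 8.61 in the 6 CTRL miR tumours, with no overlap (log2 change -1.70 ± 0.09 SE, limma adjusted p = 1.7e-09). ERBB2 lay between 10.6 and 11.3 in all 16 tumours. CTRL miR tumours 1, 3, 4 and 6 stood apart from CTRL miR tumours 2 and 5 in their expression, and the HOX genes are among the genes in which they did. This grouping was read from expression and not from labels, so it was not tested, and counts and named changes against all 6 controls are followed by those against CTRL miR 2 and 5 alone. Arrays also fell into a set A (CTRL miR 1 to 3 and SHP2 miR1 1 to 4, 7 arrays) and a set B (the other 9 arrays) by the level of 5 short noncoding RNAs. Both sets held CTRL miR tumours of either kind.

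Among the HOX genes, HOXD10 and HOXD13 at the 5′ end of the HOXD cluster had the widest differences between tumours. The start regions of its 4 endmost genes are shown because HOXD13, HOXD11 and HOXD10 differed widely and HOXD12, which lies between HOXD13 and HOXD11, did not. Each is 300 bases, 250 before and 50 after the annotated start, on the plus strand of GRCh38.p14, from RefSeq. Capitals mark, on either strand, the CCAAT box core (CCAAT), the GC box core (GGGCGG), the TATA box core (TATAAA), a HOX-PBX core (TGATTNAT) and a homeodomain core (TAATTA).
HOXD13 (chr2:176092471-176092770): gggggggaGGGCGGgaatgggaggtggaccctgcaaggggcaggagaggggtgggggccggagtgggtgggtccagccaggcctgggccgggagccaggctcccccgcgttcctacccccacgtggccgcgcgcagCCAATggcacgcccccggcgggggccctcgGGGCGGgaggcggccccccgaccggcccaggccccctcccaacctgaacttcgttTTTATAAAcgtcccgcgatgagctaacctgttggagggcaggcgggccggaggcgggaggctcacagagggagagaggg
HOXD12 (chr2:176099545-176099844): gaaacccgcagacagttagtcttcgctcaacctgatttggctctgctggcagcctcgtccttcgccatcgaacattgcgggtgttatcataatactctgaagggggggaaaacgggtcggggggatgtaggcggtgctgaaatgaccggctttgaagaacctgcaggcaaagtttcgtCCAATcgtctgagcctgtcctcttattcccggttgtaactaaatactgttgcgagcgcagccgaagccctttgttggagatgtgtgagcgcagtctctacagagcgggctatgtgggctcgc
HOXD11 (chr2:176107030-176107329): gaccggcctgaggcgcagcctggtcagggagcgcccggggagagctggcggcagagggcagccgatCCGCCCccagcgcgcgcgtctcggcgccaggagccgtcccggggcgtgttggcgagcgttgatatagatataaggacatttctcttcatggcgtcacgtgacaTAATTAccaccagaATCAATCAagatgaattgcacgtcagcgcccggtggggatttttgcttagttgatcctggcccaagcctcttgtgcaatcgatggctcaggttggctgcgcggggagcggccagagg
HOXD10 (chr2:176116528-176116827): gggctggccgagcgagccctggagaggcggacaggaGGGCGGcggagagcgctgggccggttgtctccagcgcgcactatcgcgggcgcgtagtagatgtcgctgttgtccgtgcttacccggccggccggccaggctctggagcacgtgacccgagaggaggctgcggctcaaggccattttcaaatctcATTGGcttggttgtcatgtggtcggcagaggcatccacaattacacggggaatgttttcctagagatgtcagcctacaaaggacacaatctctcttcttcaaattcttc

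Start regions of 11 members were in the RefSeq table. CCAAT stood in 9 of the 11, against 34.6% of 35116 start regions of that length, and was not among these letters in HOXD11 and HOXD8. GGGCGG stood in 5 (HOXD1, HOXD3, HOXD10, HOXD11 and HOXD13) against 45.0% of all. TATAAA stood in HOXD13 alone, where the motif on one strand overlaps that on the other, against 11.5% of all. TGATTNAT stood in HOXA2 and HOXD11 (2.82% of all) and TAATTA in HOXD3 and HOXD11 (4.84% of all). The HOXD12 region held CCAAT and none of the other 4 motifs. CpG dinucleotides numbered 24 in HOXD13, 19 in HOXD12, 27 in HOXD11 and 23 in HOXD10, against a median of 14 over all start regions. These matches describe letters in a window and are not evidence of binding.

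With both hairpins weighted equally against all 6 CTRL miR tumours, 11 of the 27 HOX genes were lower (limma, Benjamini-Hochberg adjusted p below 0.05 over all 18377 genes) and 0 were higher. Over all genes 13.1% were lower and 5.52% higher. The 11 were HOXD13, HOXD11, HOXD10, HOXD9 and HOXD3, then HOXB9, HOXB6, HOXB5 and HOXB3, then HOXA2 and HOXC11. The median change of the 27 was -0.26, against 0.03 over all genes, and 21 of the 27 had a change below 0. Against CTRL miR 2 and 5 alone, 0 HOX genes passed in either direction, where 0.751% of all genes did, and 0 had an unadjusted p below 0.05. The median change of the 27 was then -0.008, and the changes lay between -0.32 and 0.23. In no HOX gene did all 10 SHP2 miR tumours lie below all 6 CTRL miR tumours, or above them. Over all genes 0.239% lay wholly below and 0.223% wholly above.

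In 9 of the 27 HOX genes CTRL miR tumours 1, 3, 4 and 6 all lay above the other 12 tumours, against 8.76% of all genes, and in 0 all lay below (1.94% of all genes). The 9 were HOXA2, HOXB3, HOXB5, HOXB6, HOXB9, HOXD9, HOXD10, HOXD11 and HOXD13, so that none of the 7 HOXC genes was among them. The gap between the lowest of the 4 and the highest of the 12 ran from 0.30 in HOXB3 to 3.14 in HOXD10, and reached 1 log2 unit in HOXD10, HOXD13, HOXB9 and HOXD11 (4 of 27, against 0.615% of all genes). CTRL miR 3 was the highest of the 4 in 8 of the 9 genes and CTRL miR 4 the lowest in 7. The grouping was read from expression in these data, and the family was chosen with earlier results known. These counts therefore give no separate support for the grouping.

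**Figure D1:**
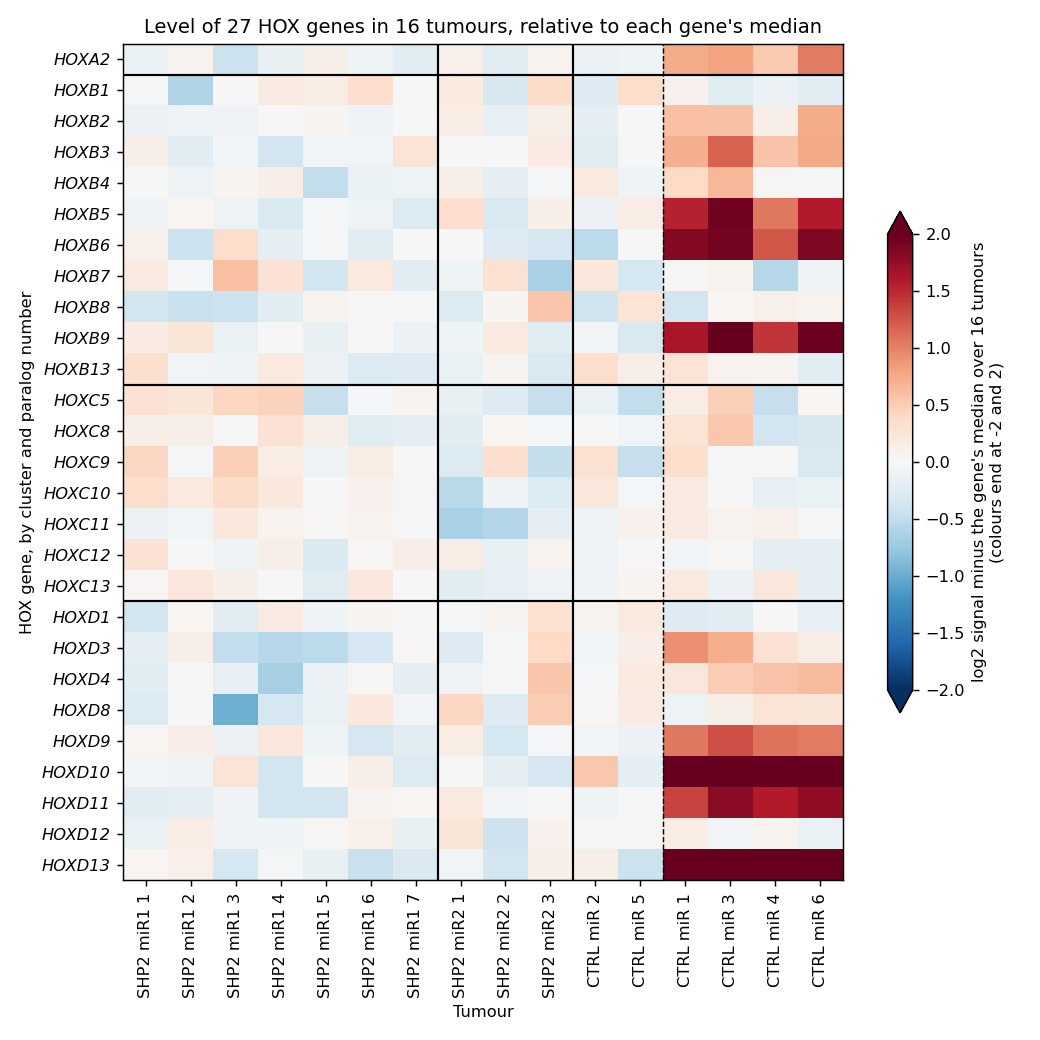
Heat map of the 27 HOX genes (down) in 16 tumours (across), as log2 signal minus the gene's median over the 16, with solid lines between groups and gene clusters and a dashed line between CTRL miR 2 and 5 and CTRL miR 1, 3, 4 and 6. Rows of HOXD9, HOXD10, HOXD11, HOXD13, HOXB5, HOXB6 and HOXB9 are dark in those 4 tumours, while the HOXC rows show no such block.

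HOXD10, a posterior gene of limb and spinal cord patterning, had log2 signals of 3.27, 3.58 and 3.90 (lowest, median, highest of 7) with SHP2 miR1 and of 3.63, 3.44 and 3.30 with SHP2 miR2, against 4.17 and 3.43 in CTRL miR 2 and 5 and 7.49, 7.83, 7.31 and 7.78 in CTRL miR 1, 3, 4 and 6. The 4 last tumours lay apart from the other 12, among which CTRL miR 2 was the highest and CTRL miR 5 lay within the SHP2 miR range. Group means were 3.58 ± 0.21 with SHP2 miR1, 3.46 ± 0.16 with SHP2 miR2 and 6.34 ± 1.99 in controls (SD, n = 7, 3 and 6). The change for both hairpins was -2.82 ± 0.54 (SE, limma adjusted p = 0.00233), and against CTRL miR 2 and 5 alone it was -0.28 (95% interval -0.65 to 0.08). No control tumour lay near the control mean. In the 12 tumours outside CTRL miR 1, 3, 4 and 6 all values lay below 4.63, the 95th percentile of 339 olfactory receptor genes, which served as a guide to the signal of silent genes, so no fold is given.

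HOXD13, the last gene of the cluster, whose mutation malforms the digits, had signals of 4.92, 5.21 and 5.46 (lowest, median, highest) with SHP2 miR1 and 5.32, 4.98 and 5.48 with SHP2 miR2, against 5.48 and 4.94 in CTRL miR 2 and 5 and 7.96, 8.07, 7.86 and 8.0 in CTRL miR 1, 3, 4 and 6. As for HOXD10, the 4 last tumours were high and CTRL miR 2 and 5 lay within or next to the SHP2 miR range. Its change was -1.82 ± 0.40 (adjusted p = 0.0049) against all controls and 0.02 (95% interval -0.33 to 0.37) against CTRL miR 2 and 5.

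HOXD11, which acts with HOXA11 in the forearm and kidney, had signals of 4.53, 4.73 and 4.97 (lowest, median, highest) with SHP2 miR1 and 5.11, 4.86 and 4.91 with SHP2 miR2, against 4.85 and 4.91 in CTRL miR 2 and 5 and 6.26, 6.71, 6.50 and 6.69 in CTRL miR 1, 3, 4 and 6. HOXD9, its neighbour beyond HOXD10, had 5.06, 5.32 and 5.64 with SHP2 miR1 and 5.56, 5.06 and 5.36 with SHP2 miR2, against 5.36 and 5.28 in CTRL miR 2 and 5 and 6.46, 6.69, 6.49 and 6.45 in CTRL miR 1, 3, 4 and 6. The same 4 tumours were high in both genes. The changes were -1.13 ± 0.25 (adjusted p = 0.005) for HOXD11 and -0.78 ± 0.19 (adjusted p = 0.00926) for HOXD9 against all controls, and -0.03 and 0.02 against CTRL miR 2 and 5.

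The pattern did not cover the HOXD cluster evenly. HOXD12, set between HOXD13 and HOXD11, lay between 3.25 and 3.89 in all 16 tumours (log2 change -0.03, 95% interval -0.22 to 0.17), and its mean was below the olfactory receptor percentile. HOXD8 (change -0.12) and HOXD1 (0.09), on the 3′ side of HOXD9, did not pass. HOXD3 had 3.25, 3.48 and 3.93 (lowest, median, highest) with SHP2 miR1 and 3.55, 3.79 and 4.21 with SHP2 miR2, against 3.76 and 3.95 in CTRL miR 2 and 5 and 4.73, 4.55, 4.11 and 3.96 in CTRL miR 1, 3, 4 and 6, so that the groups overlapped. It passed against all controls (-0.48 ± 0.15, adjusted p = 0.0337) and not against CTRL miR 2 and 5 (-0.16). All HOXD3 values but that of CTRL miR 1 lay below the olfactory receptor percentile of 4.63. HOXD4, just short of the threshold for both hairpins (-0.37, adjusted p = 0.0503, and -0.10 against CTRL miR 2 and 5), had 5.0, 5.50 and 5.69 with SHP2 miR1 and 5.60, 5.68 and 6.22 with SHP2 miR2, against 5.64 and 5.86 in CTRL miR 2 and 5 and 5.89, 6.18, 6.23 and 6.30 in CTRL miR 1, 3, 4 and 6.

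In the HOXB cluster HOXB9, HOXB6 and HOXB5 had the widest changes. HOXB9, whose mouse counterpart acts with Hoxa9 and Hoxd9 in growth of the mammary gland in pregnancy, had signals of 5.80, 5.94 and 6.20 (lowest, median, highest) with SHP2 miR1 and 5.87, 6.16 and 5.73 with SHP2 miR2, against 5.91 and 5.65 in CTRL miR 2 and 5 and 7.60, 8.10, 7.39 and 7.91 in CTRL miR 1, 3, 4 and 6. HOXB6 had 4.05, 4.44 and 4.82 with SHP2 miR1 and 4.49, 4.22 and 4.14 with SHP2 miR2, against 3.95 and 4.48 in CTRL miR 2 and 5 and 6.31, 6.40, 5.72 and 6.35 in CTRL miR 1, 3, 4 and 6. The 4 high tumours were again CTRL miR 1, 3, 4 and 6, and the lowest value of HOXB6 was in CTRL miR 2. HOXB5 had 3.88, 4.09 and 4.22 with SHP2 miR1 and 4.52, 3.87 and 4.30 with SHP2 miR2, against 4.07 and 4.34 in CTRL miR 2 and 5 and 5.72, 6.11, 5.24 and 5.78 in CTRL miR 1, 3, 4 and 6. Against all controls the changes were -1.15 ± 0.30 for HOXB9 (adjusted p = 0.0111), -1.18 ± 0.30 for HOXB6 (adjusted p = 0.0113) and -1.06 ± 0.24 for HOXB5 (adjusted p = 0.00588). Against CTRL miR 2 and 5 they were 0.16, 0.13 and -0.06, each with an interval that holds 0. HOXB5 was at most 4.52 in the tumours outside CTRL miR 1, 3, 4 and 6, below the olfactory receptor percentile of 4.63.

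Further towards the 3′ end, HOXB3, a gene of hindbrain segments, had 4.43, 4.76 and 5.09 (lowest, median, highest) with SHP2 miR1 and 4.82, 4.81 and 4.97 with SHP2 miR2, against 4.60 and 4.82 in CTRL miR 2 and 5 and 5.54, 6.0, 5.39 and 5.57 in CTRL miR 1, 3, 4 and 6 (change against all controls -0.50 ± 0.17, adjusted p = 0.0394, and 0.11 against CTRL miR 2 and 5). HOXB2, just short of the threshold (-0.32, adjusted p = 0.0813, and 0.09 against CTRL miR 2 and 5), had 3.91, 3.96 and 4.08 with SHP2 miR1 and 4.18, 3.86 and 4.15 with SHP2 miR2, against 3.85 and 4.02 in CTRL miR 2 and 5 and 4.63, 4.62, 4.14 and 4.78 in CTRL miR 1, 3, 4 and 6. CTRL miR 4 was the tumour that kept HOXB2 out of the 9 genes, by 0.03 log2 units. HOXA2, which patterns the second pharyngeal arch, had 3.69, 3.98 and 4.23 with SHP2 miR1 and 4.23, 3.91 and 4.18 with SHP2 miR2, against 4.0 and 4.06 in CTRL miR 2 and 5 and 4.87, 4.93, 4.64 and 5.15 in CTRL miR 1, 3, 4 and 6 (change -0.56 ± 0.15, adjusted p = 0.0176, and 0.03 against CTRL miR 2 and 5). Outside CTRL miR 1, 3, 4 and 6 all HOXA2 and HOXB2 values lay below the olfactory receptor percentile of 4.63.

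**Figure D2:**
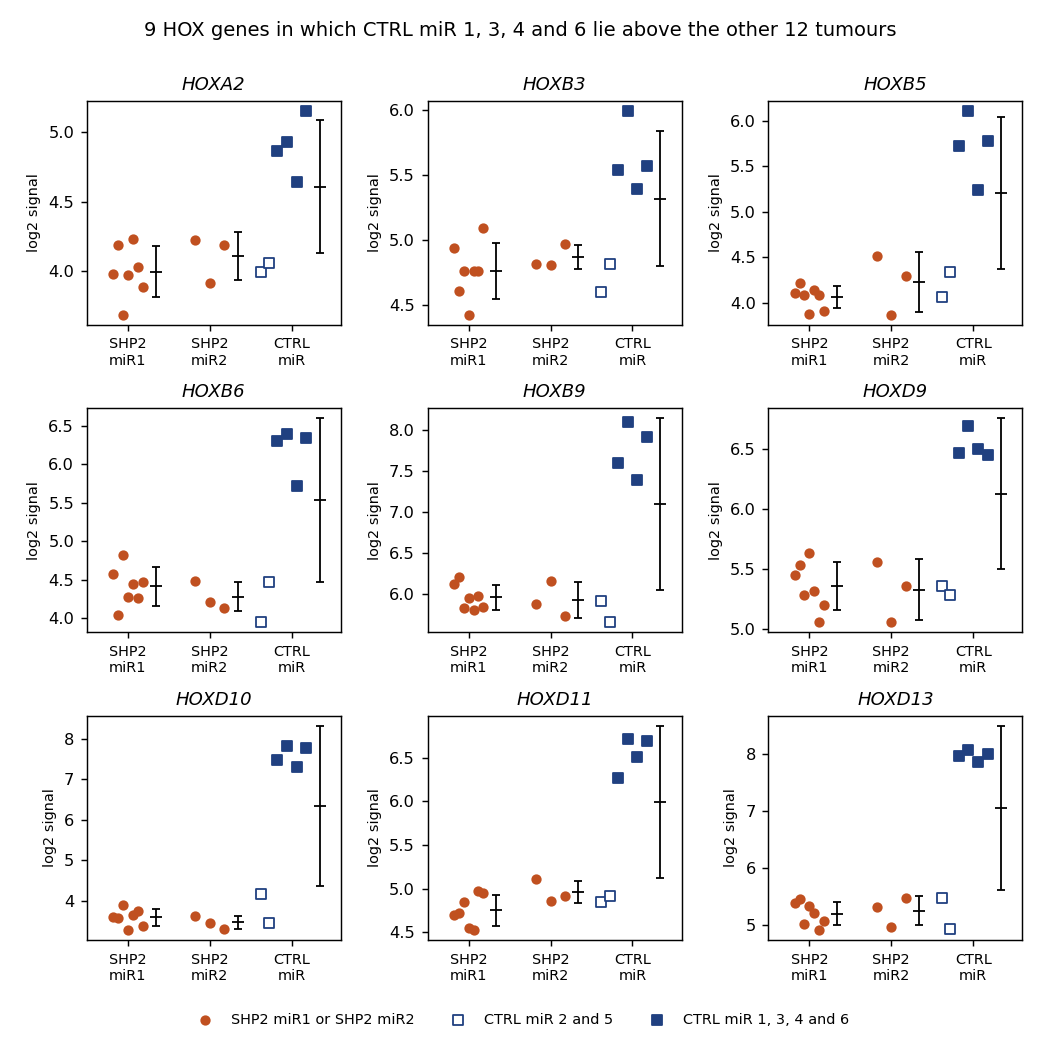
Log2 signal of 9 HOX genes by tumour, with SHP2 miR1, SHP2 miR2 and CTRL miR from left to right, circles for SHP2 miR tumours, open squares for CTRL miR 2 and 5, filled squares for CTRL miR 1, 3, 4 and 6, and bars for the group mean ± SD (n = 7, 3 and 6). In each gene the filled squares lie above every other point and the open squares lie among or next to the circles.

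HOXB7 and HOXB13 lie in the same cluster and did not follow this pattern. HOXB7, which is often overexpressed in breast cancer, had signals of 7.12, 7.67 and 8.09 (lowest, median, highest) with SHP2 miR1 and 7.41, 7.80 and 6.85 with SHP2 miR2, against 7.70 and 7.15 in CTRL miR 2 and 5 and 7.52, 7.57, 6.92 and 7.43 in CTRL miR 1, 3, 4 and 6. All groups overlapped, although HOXB6 and HOXB9 lie on either side of HOXB7 and HOXB8. HOXB13, a gene of the prostate and hindgut that is measured in breast cancer as a marker of response to endocrine treatment, had 6.77, 6.97 and 7.37 with SHP2 miR1 and 6.91, 7.10 and 6.74 with SHP2 miR2, against 7.40 and 7.16 in CTRL miR 2 and 5 and 7.33, 7.12, 7.10 and 6.84 in CTRL miR 1, 3, 4 and 6. The 95% intervals of the changes were -0.24 to 0.43 for HOXB7 and -0.42 to 0.03 for HOXB13. HOXB1, HOXB4 and HOXB8 did not pass either (changes 0.11, -0.26 and 0.01).

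The 7 HOXC genes all had a mean above the 95th percentile of olfactory receptor genes, as did 7 of 10 HOXB and 6 of 9 HOXD genes but not HOXA2, which makes 20 of 27. For both hairpins against all controls 6 of the 7 HOXC genes did not pass. HOXC8 had 6.46, 6.82 and 7.0 (lowest, median, highest) with SHP2 miR1 and 6.50, 6.76 and 6.68 with SHP2 miR2, against 6.71 and 6.66 in CTRL miR 2 and 5 and 6.98, 7.25, 6.33 and 6.40 in CTRL miR 1, 3, 4 and 6. The 4 tumours that were high for HOXD10 held both the highest and the lowest value of HOXC8. HOXC13, a gene of hair and nail keratinocytes, had 5.78, 6.05 and 6.25 with SHP2 miR1 and 5.82, 5.87 and 5.92 with SHP2 miR2, against 5.96 and 6.08 in CTRL miR 2 and 5 and 6.22, 5.90, 6.26 and 5.85 in CTRL miR 1, 3, 4 and 6. The 95% intervals were -0.29 to 0.24 for HOXC8 and -0.26 to 0.11 for HOXC13. HOXC5, HOXC9 and HOXC12 had changes between -0.004 and 0.10.

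HOXC11 and HOXC10 were the members that differed between the hairpins. HOXC11 had 5.94, 6.08 and 6.28 (lowest, median, highest) with SHP2 miR1 and 5.41, 5.47 and 5.86 with SHP2 miR2, against 5.98 and 6.16 in CTRL miR 2 and 5 and 6.24, 6.13, 6.16 and 6.04 in CTRL miR 1, 3, 4 and 6. All 3 SHP2 miR2 tumours lay below all SHP2 miR1 and all CTRL miR tumours, while the SHP2 miR1 and CTRL miR tumours overlapped. Its change for both hairpins was -0.28 ± 0.08 (limma adjusted p = 0.0232), with a two-sided exact permutation p of 0.169 for the 10 SHP2 miR tumours against the 6 controls. Against CTRL miR 2 and 5 it was -0.23 (limma adjusted p = 0.797). HOXC10 had 6.88, 7.11 and 7.28 with SHP2 miR1 and 6.37, 6.81 and 6.65 with SHP2 miR2, against 7.14 and 6.90 in CTRL miR 2 and 5 and 7.10, 6.91, 6.74 and 6.79 in CTRL miR 1, 3, 4 and 6. Here all SHP2 miR2 tumours lay below all SHP2 miR1 tumours. SHP2 miR2 tumours 1 and 3 also lay below all controls, while tumour 2 lay among them. The HOXC10 change with SHP2 miR2 was -0.32 against all controls (limma adjusted p = 0.0583). It was -0.41 against CTRL miR 2 and 5 (limma adjusted p = 0.172).

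SHP2 miR1 minus SHP2 miR2 was 0.51 ± 0.11 for HOXC11 (limma adjusted p = 0.00299) and 0.47 ± 0.12 for HOXC10 (adjusted p = 0.0111). The two-sided exact permutation p was 0.00833 for each, the smallest these group sizes allow. They were the 2 of 27 HOX genes higher with SHP2 miR1, against 14.3% of all genes, and 0 were lower, against 8.22%. Within array set B, which holds all SHP2 miR2 tumours, the differences were 0.51 (adjusted p = 0.0477) for HOXC11 and 0.32 (adjusted p = 0.164) for HOXC10, and after quantile normalization they were 0.53 and 0.29 (adjusted p = 0.00336 and 0.059). The spread of signals over the array was lowest in SHP2 miR2 tumours 1 and 3 (SD 1.89 each) and reached 2.07 in another tumour. Its part in the result was not tested. Markers listed for host cell types differed between the hairpins too. The array is human, so these signals do not tell mouse host cells from tumour cells. Of 9 macrophage markers 4 were lower and 0 higher with SHP2 miR1 than with SHP2 miR2, against the same shares of all genes. Of 13 fibroblast markers 3 were lower and 1 higher, and of 8 endothelial and 8 skeletal muscle markers 0 passed. The mean level of the macrophage list was 4.26 to 4.49 with SHP2 miR1 and 4.46 to 4.88 with SHP2 miR2, and that of the fibroblast list 5.0 to 5.22 with SHP2 miR1 and 5.21 to 5.35 with SHP2 miR2. Means of 5 macrophage, 6 fibroblast, 3 endothelial and 5 muscle markers lay above the olfactory receptor percentile of 4.63. Their part in the result was not tested.

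**Figure D3:**
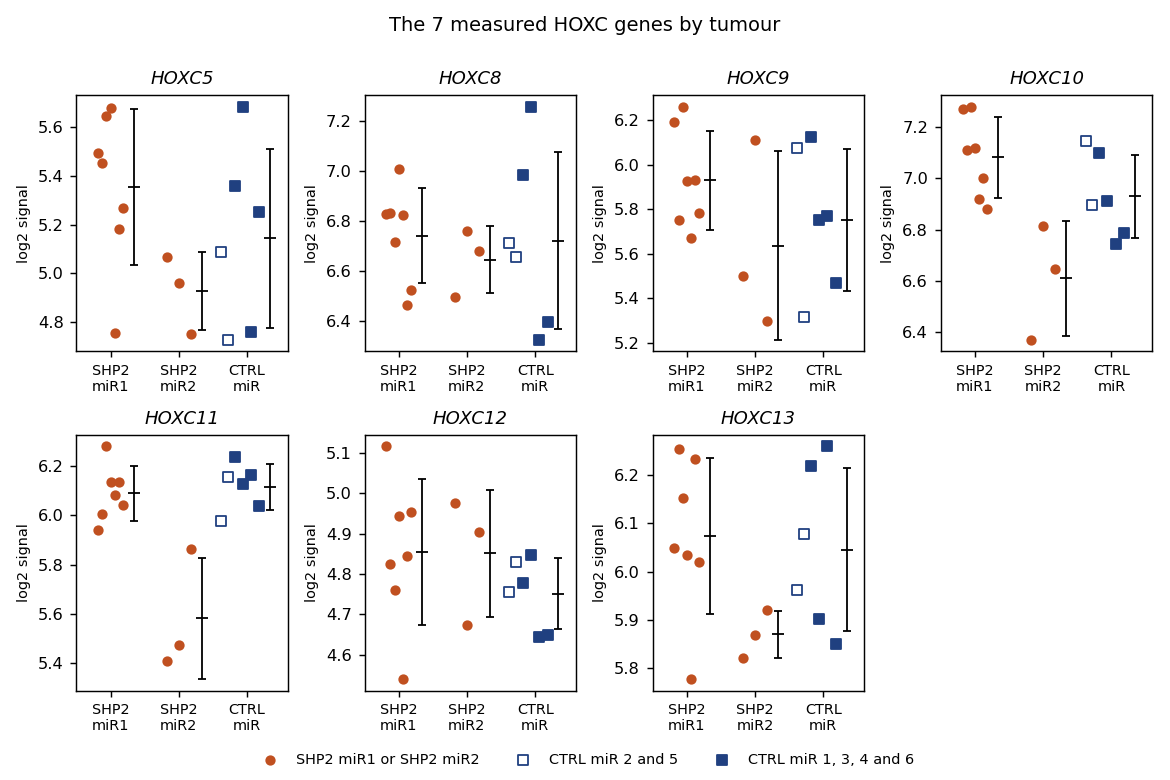
Log2 signal of the 7 measured HOXC genes by tumour, with SHP2 miR1, SHP2 miR2 and CTRL miR from left to right, open squares for CTRL miR 2 and 5, filled squares for CTRL miR 1, 3, 4 and 6, and bars for the group mean ± SD (n = 7, 3 and 6). Open and filled squares are mixed in all 7 genes, and the 3 SHP2 miR2 points of HOXC11 lie below all other points.

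Each hairpin was also set against the same 6 controls. With SHP2 miR1, 10 HOX genes were lower (3.38% of all genes were) and 0 higher (1.38%). The 10 were HOXA2, HOXB5, HOXB6, HOXB9, HOXD3, HOXD4, HOXD9, HOXD10, HOXD11 and HOXD13. With SHP2 miR2, 8 were lower (18.2%) and 0 higher (11.8%), namely HOXB5, HOXB6, HOXB9, HOXC11, HOXD9, HOXD10, HOXD11 and HOXD13. HOXD10 changed by -2.76 ± 0.57 with SHP2 miR1 (adjusted p = 0.013) and -2.88 ± 0.72 with SHP2 miR2 (adjusted p = 0.00671), HOXD13 by -1.85 and -1.79, and HOXB9 by -1.14 and -1.17. HOXD4 passed with SHP2 miR1 (-0.55 ± 0.13, adjusted p = 0.0225), as did HOXD3 (-0.64 ± 0.16, adjusted p = 0.0263). HOXC11 passed with SHP2 miR2 (-0.53 ± 0.11, adjusted p = 0.00175) and had the smallest exact permutation p the sizes of these groups allow (0.0119). It was the 1 member in which all SHP2 miR2 tumours lay below all controls, against 11.2% of all genes. For the 7 other members called with SHP2 miR2 (3 tumours) the exact permutation p, from 0.0833 for HOXD10 to 0.143, did not reach the threshold. For the 10 members called with SHP2 miR1 the unadjusted exact permutation p ran from 0.00175 (HOXD4) to 0.0286 (HOXB6). For members called for both hairpins, HOXC11 apart, it ran from 0.00112 (HOXD10) to 0.00874 (HOXB3). Against CTRL miR 2 and 5 alone 0 HOX genes passed with either hairpin, against 0.136% of all genes for SHP2 miR1 and 4.37% for SHP2 miR2, and HOXC11 with SHP2 miR2 was nearest (-0.48, adjusted p = 0.0801). With SHP2 miR2 against all controls, 7 of 9 macrophage, 7 of 13 fibroblast, 2 of 8 endothelial and 0 of 8 skeletal muscle markers were higher, and 2 fibroblast markers were lower. With CTRL miR 2 and 5 alone as controls, 1 macrophage and 1 fibroblast marker were higher and 1 fibroblast marker lower. Their part in the HOXC11 result was not tested.

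The changes had much the same size in either array set and did not always pass there. In set B the change for both hairpins was -2.65 for HOXD10 (adjusted p = 0.0631), -1.77 for HOXD13 (adjusted p = 0.0772) and -1.09 for HOXB9 (adjusted p = 0.107), and 0 members passed. In set A, which has no SHP2 miR2 tumour, the change with SHP2 miR1 was -2.92 for HOXD10, -1.87 for HOXD13 and -1.18 for HOXB9, and 0 passed. With the set as a block 12 members were lower for both hairpins, HOXD10 among them (-2.79, adjusted p = 0.00409). Leaving out 1 tumour at a time gave 7 to 14 lower members for both hairpins (7 without CTRL miR 1 or CTRL miR 3), 2 to 12 for SHP2 miR1 and 2 to 10 for SHP2 miR2. For SHP2 miR1 the count was 2 without CTRL miR 6, 3 without CTRL miR 3 or CTRL miR 4, 5 without CTRL miR 1 or SHP2 miR1 3, and 6 without SHP2 miR1 1, 4, 5, 6 or 7. For SHP2 miR2 it was 2 without SHP2 miR2 3, 3 without CTRL miR 1 or CTRL miR 3, 4 without CTRL miR 6 or SHP2 miR2 1, and 5 without SHP2 miR2 2.

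**Figure D4:**
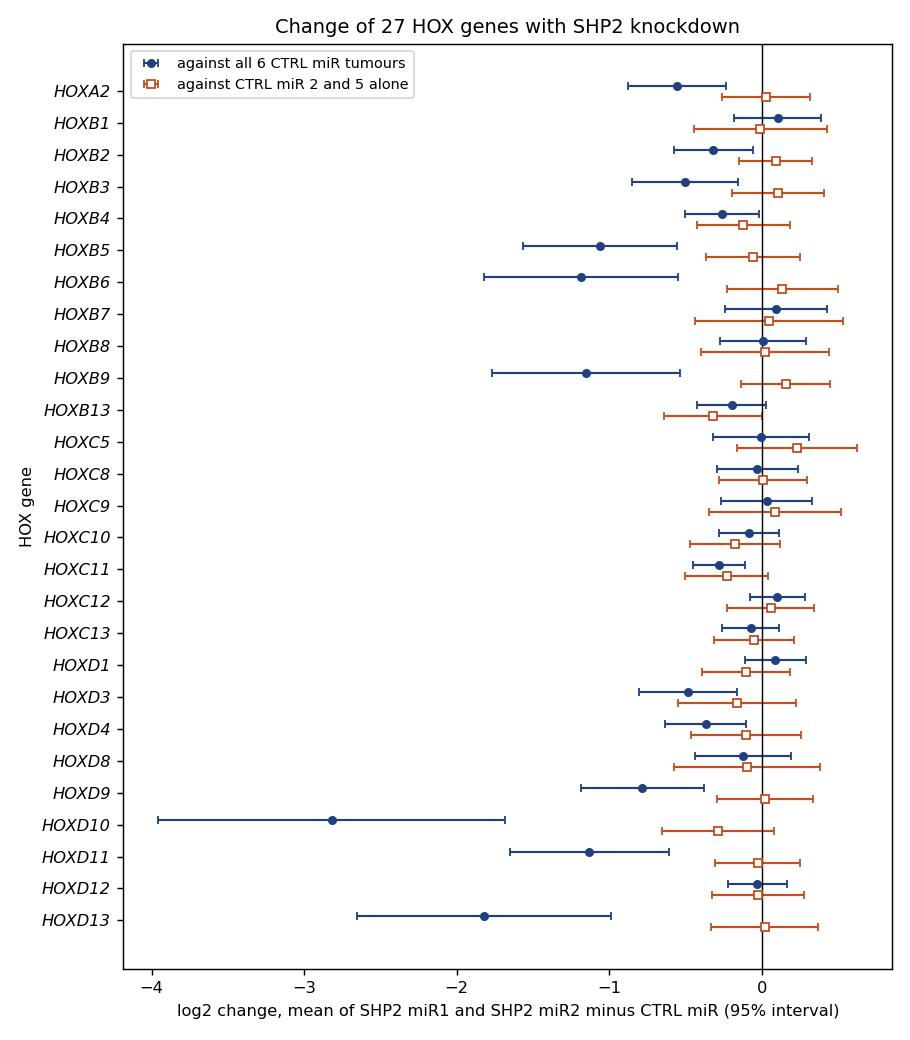
Log2 change of the 27 HOX genes, mean of SHP2 miR1 and SHP2 miR2 minus CTRL miR, with 95% intervals, against all 6 CTRL miR tumours (filled circles) and against CTRL miR 2 and 5 alone (open squares). Changes as wide as -2.82 in HOXD10 appear against all controls, while the open squares lie between -0.32 and 0.23.

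The cofactors and regulators were read against the same shares of all genes, 13.1% lower and 5.52% higher for both hairpins against all controls. Among 7 measured TALE cofactors 1 was higher and 1 lower. PBX3 was higher (0.34 ± 0.07, limma adjusted p = 0.00353), with 7.70 to 7.92 with SHP2 miR1 and 8.12, 8.38 and 8.24 with SHP2 miR2, against 7.60 to 7.79 in controls. MEIS1 was lower (-0.50 ± 0.15, adjusted p = 0.029), with 5.81 to 6.08 with SHP2 miR1 and 6.03, 5.96 and 5.59 with SHP2 miR2, against 5.83 and 5.79 in CTRL miR 2 and 5 and 6.50, 6.80, 6.64 and 6.92 in CTRL miR 1, 3, 4 and 6. MEIS1 was therefore high in the same 4 tumours as HOXD10, and so was MEIS2 (5.70, 5.74, 5.59 and 5.79, with all others at 5.42 or below), which did not pass.

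Of 23 Polycomb subunits 1 was lower, RING1 (-0.24, adjusted p = 0.0325), and 0 higher. In 4 of the 23, MTF2 and EED among them, CTRL miR 1, 3, 4 and 6 lay above all other tumours, against 8.76% of all genes. Of 13 Trithorax-type activators 2 were lower, near the 13.1% of all genes. PSIP1, which tethers MLL complexes to chromatin, had 4.88 to 5.32 with SHP2 miR1 and 5.29, 4.95 and 4.47 with SHP2 miR2, against 5.20 and 5.01 in CTRL miR 2 and 5 and 6.24, 6.23, 5.81 and 6.19 in CTRL miR 1, 3, 4 and 6 (-0.79 ± 0.18, adjusted p = 0.00597). DPY30, a subunit of histone H3 lysine methyltransferase complexes, fell by 0.36 (adjusted p = 0.00481) with no such split. Of 14 other regulators 1 was lower, GMNN, an inhibitor of replication licensing that also binds HOX proteins (-0.83 ± 0.13, adjusted p = 0.000467). CTRL miR 1, 3, 4 and 6 lay above all other tumours for GMNN as well, at 6.92 to 7.23, with the others at 6.60 or below. The median change was -0.03 for the TALE list, -0.11 for Polycomb, -0.05 for Trithorax and 0.02 for the other regulators, against 0.03 over all genes. Against CTRL miR 2 and 5 alone 0 genes of these 4 lists passed for both hairpins, and the changes were 0.25 for PBX3, 0.11 for MEIS1, -0.21 for RING1, -0.11 for PSIP1, -0.37 for DPY30 and -0.44 for GMNN. For SHP2 miR2 against these controls 1 Trithorax-type activator and 2 other regulators were lower, where 4.37% of all genes passed.

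The clusters also hold noncoding RNAs, 6 of a list of 17 being measured. HOXA-AS2 was lower (-0.31 ± 0.08, adjusted p = 0.0167), the 1 of 6 against 13.1% of all genes, and 0 were higher. Its signals, 2.43 to 3.23, all lay below the median of the olfactory receptor genes (3.24), and against CTRL miR 2 and 5 it did not pass (-0.26, adjusted p = 0.649). MIR10A, next to HOXB4, lay between 2.07 and 2.61 and MIR10B, next to HOXD4, between 2.09 and 2.37, and neither passed. Array signals of such genes read the precursor and not the mature form. The mature microRNAs are shown with the seed (bases 2 to 8) in capitals, since miR-10 and miR-196 have HOX transcripts among their known targets and carry different seeds.
hsa-miR-10a-5p: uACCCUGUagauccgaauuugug
hsa-miR-196a-5p: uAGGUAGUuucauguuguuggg
MIR196A1, next to HOXB9, and MIR196A2, next to HOXC10, both give the second sequence. MIR196A1 lay between 4.15 and 5.46 and MIR196A2 between 3.61 and 4.34, with no call.

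Part of a list of genes of the developing kidney and of the HEK293 line was high in the same 4 tumours as HOXD10. The list was chosen with earlier results of these data known. It holds IRS4, a gene that marks the split of the control tumours, so it gives no separate support for that split. Of 11 measured, 6 were lower (13.1% of all genes were) and 1 higher (5.52%) for both hairpins against all controls, and in 7 CTRL miR 1, 3, 4 and 6 lay above the other tumours (8.76% of all genes). None (0 of 11) passed against CTRL miR 2 and 5 alone. The mean level of the list was 4.13 to 4.27 with SHP2 miR1 and 4.20 to 4.48 with SHP2 miR2, against 4.19 and 4.41 in CTRL miR 2 and 5 and 5.20 to 5.54 in CTRL miR 1, 3, 4 and 6. IRS4, an insulin receptor substrate, had 3.11 to 3.91 with SHP2 miR1 and 2.97 to 3.15 with SHP2 miR2, against 3.16 and 3.77 in CTRL miR 2 and 5 and 7.46, 8.29, 7.14 and 7.54 in CTRL miR 1, 3, 4 and 6. LIN28B, an inhibitor of let-7 maturation, lay between 2.16 and 2.41 in the 12 other tumours and between 3.98 and 4.90 in those 4. In the 12 other tumours 6 of the 11 genes had a value above the olfactory receptor percentile of 4.63, and IRS4 and LIN28B did not. Of 12 luminal breast cancer line genes, 3 were higher (5.52% of all genes) and 0 lower (13.1%) for both hairpins, and 0 passed against CTRL miR 2 and 5 alone. For SHP2 miR2 against CTRL miR 2 and 5, 2 were higher and 1 lower, where 4.37% of all genes passed. The mean level of this list was 9.64 to 9.97 with SHP2 miR1 and 9.61 to 9.86 with SHP2 miR2, against 9.88 and 9.67 in CTRL miR 2 and 5 and 9.21 to 9.69 in CTRL miR 1, 3, 4 and 6. The part of either list in the HOX result was not tested.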

How the data were processed

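RNA of 16 BT474 tumours was measured on Affymetrix HuGene-1_0-st-v1 arrays, 1 per tumour. The authors deposited a value for each transcript cluster on each array. That the deposited values are log2 is taken from their range (1.54 to 13.6, array medians 5.21 to 5.41). R 2.10 and oligo 1.8 are named in the submitters' processing notes, while the sources used here do not give the background correction or the normalization. The number of arrays limits precision.

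Of 28869 clusters, 19310 with 1 symbol were kept, and the one with the highest mean stood for each gene. No filter on low values was set. limma 3.58.1 (R 4.3.3) fitted the 3 groups, with 13 residual degrees of freedom. Adjusted p-values are Benjamini-Hochberg over 18377 genes, with the threshold at 0.05 and 95% intervals. Single members were also given exact permutation tests. The fit was tested on simulated data with no split among the controls, so that test does not bear on genes that show the split. Plots used matplotlib 3.10.9. Members and lists were chosen with earlier results of these data known. Named genes are members called in any contrast, the 6 with the highest mean, 2 just short of the threshold, and at most 4 per list with the smallest adjusted p. Alternatives were other scalings, filters, priors and blocks, array sets, and left-out tumours. Sequences are from RefSeq (GRCh38.p14), and proteins were not used here.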

Additional observations from a re-analysis of the deposited data

Results flagged for a closer look

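HOXC11 and HOXC10 differed between the hairpins by the test of the difference itself, with SHP2 miR1 minus SHP2 miR2 of 0.51 for HOXC11 and 0.47 for HOXC10. Single tumours lay far from the rest of their group in 3 of 54 gene and group combinations, and chance marks about 1 in 20. All 3 were SHP2 miR1 tumours. The check compares the outermost tumour with its nearest neighbour. It therefore does not mark tumours that lie apart together, as CTRL miR 2 and 5 did for HOXD10. SHP2 miR2, with 3 tumours, was too small a group for this check and was left out. HOXB1 was 4.53 in tumour 2, with the nearest at 5.09. HOXB4 was 5.02 in tumour 5, with the nearest at 5.37. HOXD4 was 5.0 in tumour 4, with the nearest at 5.44. None of these 3 genes was among those called for both hairpins. HOXD4 was, however, called with SHP2 miR1 (-0.55, limma adjusted p = 0.0225), a group that holds the tumour marked here.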

How the results depend on the processing

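For both hairpins (11 members lower), 7 were lower when genes of low mean level were left out. The count was 0 in array set B alone and 0 against CTRL miR 2 and 5 alone. Leaving out genes of low level kept 18 members. It took out HOXA2, HOXB5, HOXB6, HOXD3 and HOXD10, which therefore could not be called. These genes were also among the members lower with SHP2 miR1. For both hairpins the others of the 11 still passed, and HOXD4 passed as well. For SHP2 miR1 (10 lower) the counts were 6 after quantile normalization, 5 without genes of low level, 6 with only the groups compared, and 0 in set A, in set B and against CTRL miR 2 and 5. For SHP2 miR2 (8 lower) they were 4 with the set as a block, 3 in set B, 2 with only the groups compared and 0 against CTRL miR 2 and 5. Between the hairpins (2 higher, 0 lower) 1 was higher after quantile normalization and 1 in set B. Leaving out 1 tumour at a time gave 7 to 14 lower for both hairpins, 2 to 12 for SHP2 miR1, 2 to 10 for SHP2 miR2, and 1 to 3 higher and 0 to 1 lower between them, with 0 higher against controls in each. Without CTRL miR 2 and 5 the lower members numbered 14, 12 and 12. Among the HOX genes and at most 4 named genes from each list of cofactors, regulators and noncoding RNAs, called changes turned sign under no alternative but CTRL miR 2 and 5 alone, in 16 cases that did not pass there. They became, for both hairpins, 0.026 (HOXA2), 0.11 (HOXB3), 0.13 (HOXB6), 0.16 (HOXB9), 0.020 (HOXD13), 0.020 (HOXD9) and 0.11 (MEIS1), for SHP2 miR1 0.20 (HOXB6), 0.18 (HOXB9) and 0.035 (HOXD9), and for SHP2 miR2 0.027 (HOXB5), 0.067 (HOXB6), 0.14 (HOXB9), 0.079 (HOXD11), 0.047 (HOXD13) and 0.0047 (HOXD9). That fit has 2 controls and 12 tumours. Apart from the members taken out with genes of low level, the cause of other moves was not tested.

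Tumours with the same replicate number correlated at -0.42 to 0.37 in their deviations from the group means over 12 pairs (5 over 0.1), so the numbers were not taken to pair tumours. The replicate number as a block gave 12 members lower for both hairpins, 9 for SHP2 miR1 and 11 for SHP2 miR2, and between the hairpins 4 higher and 2 lower (HOXB8 and HOXD8).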

Other observations

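The transcript cluster shared by HOXC6 and HOXC4 lay between 6.42 and 6.72 with SHP2 miR1 and at 6.28, 6.79 and 6.46 with SHP2 miR2, against 6.42 and 6.20 in CTRL miR 2 and 5 and 6.74, 6.89, 6.57 and 6.53 in CTRL miR 1, 3, 4 and 6. All groups overlapped. It was not tested here because its signal cannot be assigned to 1 of the 2 genes.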
